A study of Mus musculus with 21 samples.

Results

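Immediate early genes are transcribed within minutes of a stimulus, before any new protein is made, and enzymatic digestion of a tissue into single cells is known to switch them on. Here 10 of them were followed, out of 27179 genes in the count tables: the AP-1 subunits Fos, Fosb, Jun and Junb, the transcription factors Atf3, Egr1 and Nr4a1, Ier2, the MAP kinase phosphatase Dusp1 and the mRNA decay factor Zfp36. They were chosen by name as a list of dissociation-responsive genes, and all 10 passed the filter on low counts in the 21 libraries. Each library was mRNA from the podocyte fraction of the cortex of 1 wildtype mouse, collected after Liberase and DNase digestion with nephrin antibodies and magnetic beads, a procedure shared by all libraries. The groups were 6 untreated young mice of 4 months, 7 middle-aged mice of 19.5 months given saline, and 8 middle-aged mice of 19.5 months given 10 mg/kg MCC950, an inhibitor of the NLRP3 inflammasome, for 6 weeks from 18 months of age. The study's text gives a smaller number of young mice of this age than the labels, and all 6 labelled young libraries were used. No library of undigested tissue was analysed here, so the part of any level that arose during digestion was not measured. The young mice had no injections, so that age and saline injection cannot be told apart in the comparison of saline with young.

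In a resting cell these genes are held ready by transcription factors already bound or poised at their promoters. Serum response factor (SRF) with its ternary complex and MRTF partners acts through the CArG box, and CREB through the cAMP response element (CRE), once MAP kinase or cAMP and calcium signals arrive. Their products then act on later genes: Fos and Jun proteins pair to form AP-1, Egr1 binds GC-rich EGR sites, and Dusp1 and Zfp36 shut the response down by inactivating MAP kinases and destroying short-lived mRNA. The mRNA of the family is itself unstable, so its level follows recent transcription closely.

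The letters of these sites were searched on both strands of RefSeq promoters (GRCm38.p6, 250 bases before to 50 after the annotated start), which held an entry for 8 of the 10 genes, Egr1 and Ier2 being the others. The stretches of 150 bases before the start are shown for 4 genes that between them hold each kind of site found, with the matches in capitals (TATAAA and TGACG in Fos, TGACG and GCGGGGGCG in Fosb, TGACGTCA in Dusp1, GCGGGGGCG and the CArG box in Zfp36). The Fos stretch is chr12:85473740-85473889 on the plus strand, and the others lie on the minus strand at chr7:19310046-19310195 (Fosb), chr17:26508473-26508622 (Dusp1) and chr7:28379229-28379378 (Zfp36).
Fos: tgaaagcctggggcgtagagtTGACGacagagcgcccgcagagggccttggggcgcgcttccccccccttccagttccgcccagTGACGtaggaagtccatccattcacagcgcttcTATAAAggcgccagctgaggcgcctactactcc
Fosb: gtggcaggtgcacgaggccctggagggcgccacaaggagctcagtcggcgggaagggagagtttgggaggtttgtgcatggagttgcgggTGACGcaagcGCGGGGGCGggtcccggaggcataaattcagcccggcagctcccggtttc
Dusp1: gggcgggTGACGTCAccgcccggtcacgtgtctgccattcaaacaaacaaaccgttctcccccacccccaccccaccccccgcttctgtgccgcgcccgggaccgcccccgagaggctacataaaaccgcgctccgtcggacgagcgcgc
Zfp36: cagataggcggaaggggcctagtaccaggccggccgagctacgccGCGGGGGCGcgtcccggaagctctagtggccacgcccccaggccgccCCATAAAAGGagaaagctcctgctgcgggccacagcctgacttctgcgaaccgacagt

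The EGR site (GCGGGGGCG or GCGTGGGCG) was in 3 of the 8 promoters, those of Fosb, Nr4a1 and Zfp36, and in 6.09% of the 15357 promoters of tested genes. The full CRE (TGACGTCA) was in 1 of 8, Dusp1, and in 2.77% of tested promoters, and the CArG box in 1 of 8, Zfp36, and in 1.32%. TATAAA was in 2 of 8, Fos at 33 bases before the start and Junb at the start itself, and in 7.93% of tested promoters, and the AP-1 site (TGAGTCA or TGACTCA) was in 0 of 8 and in 4% of them. The core TGACG, which the full CRE contains on each strand, was added to the search later. It was in 6 of 8 promoters (Atf3, Dusp1, Fos, Fosb, Junb and Nr4a1) and in 28.4% of tested promoters. A match describes the letters in this window and no binding was measured.

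The 10 genes were abundant in every library. Together they took 1.36 to 2.36% of the counts outside the mitochondrial genes in young, 1.41 to 2.04% in saline and 1.24 to 2.16% in MCC950 libraries, and the lowest count of any of them in any library was 2986 (Ier2 in young replicate 5), so that counting error was small beside the spread between mice. Per kilobase of exon, Fos ranked 8th in young, 22nd in saline and 25th in MCC950 libraries among the 15561 non-mitochondrial genes with a length. Its level per length ran from 409 to 640 CPM per kb in young libraries, 375 to 524 in saline and 327 to 536 in MCC950 libraries, so the groups overlapped. CPM is the count scaled to a common library size after scaling by the trimmed mean of M values (TMM). Zfp36 followed with means of 277 ± 51.6, 307 ± 41.9 and 318 ± 65.2 CPM per kb (SD, n = 6, 7 and 8). Junb, Egr1, Jun and Atf3 lay between 187 and 261 CPM per kb in their group means, with SDs of 22.5 to 80.7, and their order changed between groups. Nr4a1 and Ier2 had group means of 120 to 138 CPM per kb, and Dusp1 and Fosb were the lowest of the 10 with 65.8 to 88.8, at ranks 133 to 243. The reads were aligned with Bowtie2, which does not split a read over an intron. Jun, Junb and Ier2 have 1 exon and the others between 2 and 8, and how this moved levels between genes was not tested.

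Library depth and composition differed between the groups. Total counts were 27375870 to 36827823 in young, 45772937 to 84876399 in saline and 35440472 to 58247271 in MCC950 libraries (exact two-sided permutation test, p = 0.00117 for saline against young). Genes of the mitochondrial genome took 51.5 to 80.4%, 63.0 to 79.2% and 49.9 to 63.7% of them. The podocyte label was checked with 15 podocyte markers, none at 0 in any library. Their summed level was 800 to 1773 CPM in young, 297 to 586 in saline and 404 to 690 in MCC950 libraries. In saline 14 of 15 were lower than in young, beside 12.4% of all tested genes. In MCC950 libraries 14 of 15 were lower than in young (16.5% of all tested genes) and 5 of 15 higher than in saline (11.9%). Markers of other cells were present as well, and all 12 proximal tubule markers were detected in every library, with a sum of 2309 to 10655 CPM.

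In saline against young, none of the 10 genes passed the test. Fos mRNA, the transient partner of Jun in AP-1, was at 963 CPM in the lowest, 1247 in the median and 1506 in the highest young library, and at 882, 1060 and 1233 in saline. The groups overlapped except for 1 saline library below all young ones. Its fold in saline against young was 0.874 (95% interval 0.711 to 1.08, adjusted p = 0.348, edgeR).

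**Figure D1:**
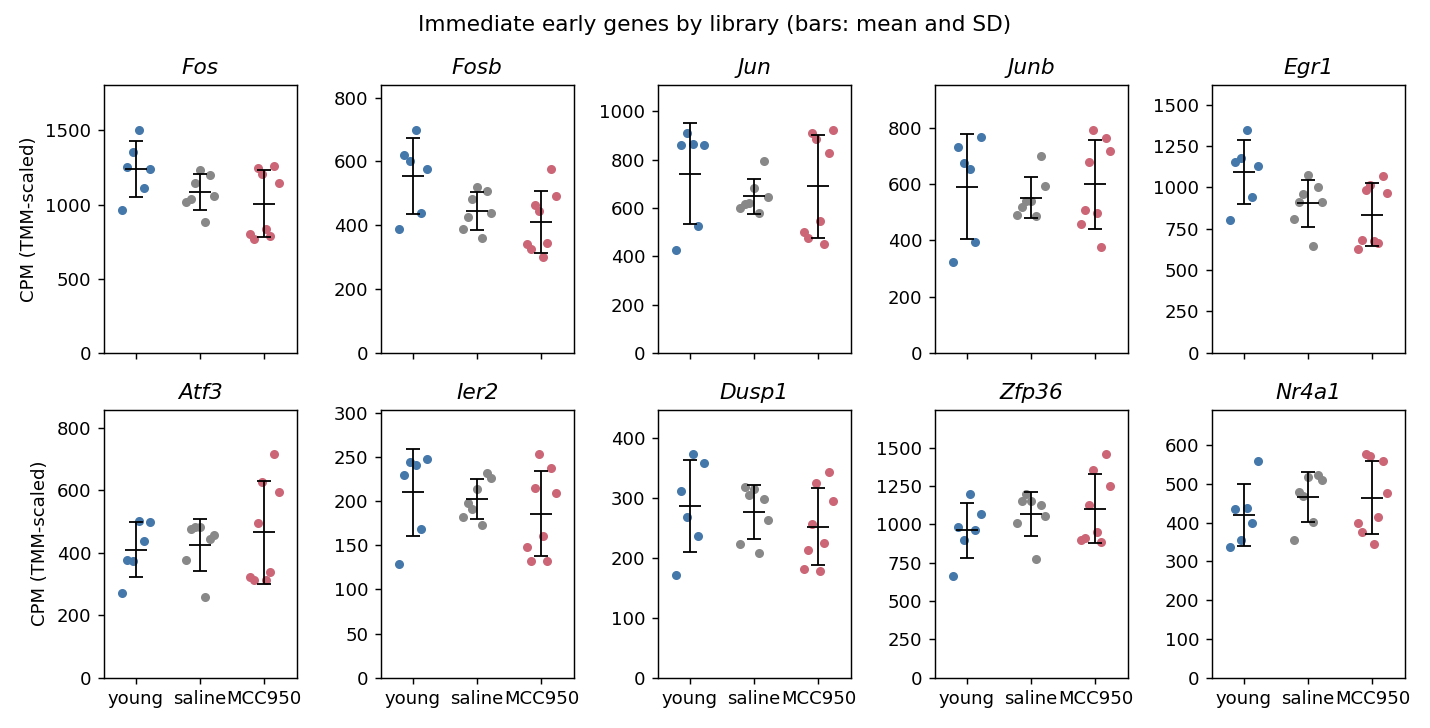
Each panel shows 1 gene, with a point for every library (6 young, 7 saline, 8 MCC950), the TMM-scaled CPM on a linear axis from 0, and bars for the mean and SD. The groups overlap for all 10 genes, and Fos spans 769 to 1506 CPM over the 21 libraries.

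Fosb, a Fos relative with a more stable protein product in its short form, was at 387, 590 and 700 CPM (lowest, median, highest) in young and at 359, 439 and 519 in saline libraries. Its log2 fold change of -0.31 (SE 0.16, adjusted p = 0.156, edgeR) was the largest of the 10 in size. Of the Jun family, Jun was at 428, 862 and 911 CPM in young and 581, 619 and 793 in saline. Every saline library of Jun lay within the young range. Junb, a Jun relative that often tempers AP-1 activity, was at 325, 665 and 770 CPM in young and 488, 540 and 700 in saline, also within the young range. Their log2 fold changes were -0.20 (SE 0.20) and -0.10 (SE 0.20).

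Atf3, a stress-induced bZIP factor that binds with Jun proteins, was at 270, 407 and 503 CPM in young and 258, 456 and 484 in saline libraries. Egr1, the zinc finger factor of the EGR sites, was at 804, 1142 and 1350 CPM in young and 647, 910 and 1077 in saline, with 1 saline library below all young ones. Nr4a1, an orphan nuclear receptor induced with the family, was at 336, 416 and 559 CPM in young and 356, 480 and 524 in saline. Of these, only Egr1 had a log2 fold change beyond 0.2 in size, -0.28 (SE 0.16, adjusted p = 0.207, edgeR), and its fold interval of 0.66 to 1.03 included no change.

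The genes that end the response lay as close together. Dusp1 was at 171, 290 and 373 CPM in young and 209, 298 and 319 in saline libraries, and Zfp36 at 666, 973 and 1201 in young and 771, 1125 and 1201 in saline. Ier2, a small nuclear protein of the early response, was at 129, 236 and 248 CPM in young and 173, 198 and 232 in saline. For Dusp1 and Ier2 the saline libraries lay inside the young range. Zfp36 had a log2 fold change of 0.15 (SE 0.15), Nr4a1 one of 0.15 (SE 0.14), and the remaining 3, Atf3, Dusp1 and Ier2, between -0.06 and 0.05.

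Counted over the family, 0 of 10 genes were higher and 0 lower in saline than in young at an adjusted p under 0.05 (edgeR), 0 also with DESeq2 and 0 at an unadjusted p under 0.05. With the replicate number as a block in the fit, Fosb was lower (log2 fold change -0.34, adjusted p = 0.0366, edgeR). Among all 16377 genes tested 12.2% were higher, 12.4% lower and 36.9% at an unadjusted p under 0.05. The study's own threshold (a change of over 2-fold and an unadjusted p under 0.05) was met by no gene of the 10, against 6.96% of all genes, and none had groups without overlap, against 9.37%. The median log2 fold change was -0.08 over the 10 genes and 0.02 over all tested genes. The intervals of the folds, from 0.64 at the lowest (Fosb) to 1.41 at the highest (Atf3), bound the changes that these libraries leave possible. Whether fewer cells of a type or less RNA per cell lies behind a level cannot be told apart in bulk libraries.

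With MCC950, again none of the 10 genes passed the test against saline, and the libraries were spread more widely. Fos was at 769 CPM in the lowest, 990 in the median and 1262 in the highest MCC950 library, with 4 libraries below all saline libraries and 2 above all of them. Jun was at 452, 688 and 925 CPM, and its 8 MCC950 libraries lay outside the saline range on either side, 4 below and 4 above. A group mean close to that of saline therefore stood for libraries away from it.

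Fosb was at 301, 394 and 576 CPM in MCC950 libraries, Junb at 378, 594 and 795 and Egr1 at 629, 824 and 1071. Atf3 was at 312, 418 and 715 CPM, with 4 MCC950 libraries above all saline ones and none below. Nr4a1 was at 344, 445 and 576 CPM, Ier2 at 132, 185 and 253 and Dusp1 at 178, 240 and 344. In each of these genes the MCC950 libraries reached above or below the saline range and the groups overlapped. Zfp36 was at 883, 1039 and 1456 CPM, with 3 MCC950 libraries above all saline ones and none below.

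The log2 fold changes against saline ran from -0.13 (Dusp1, SE 0.17) to 0.13 (Atf3, SE 0.20), with adjusted p-values of 0.626 to 0.99 (edgeR). Of the 10 genes 0 were higher and 0 lower (0 with DESeq2, 0 at an unadjusted p under 0.05), against 11.9% higher, 4.86% lower and 31.6% at an unadjusted p under 0.05 among all tested genes. None met the study's threshold, against 2.71%, or lacked overlap, against 1.74%. The fold intervals ran from 0.715 (Dusp1) to 1.46 (Atf3), which bound the changes of either sign that remain possible for single genes. The median log2 fold change was -0.05 over the 10 genes and 0.00281 over all.

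**Figure D2:**
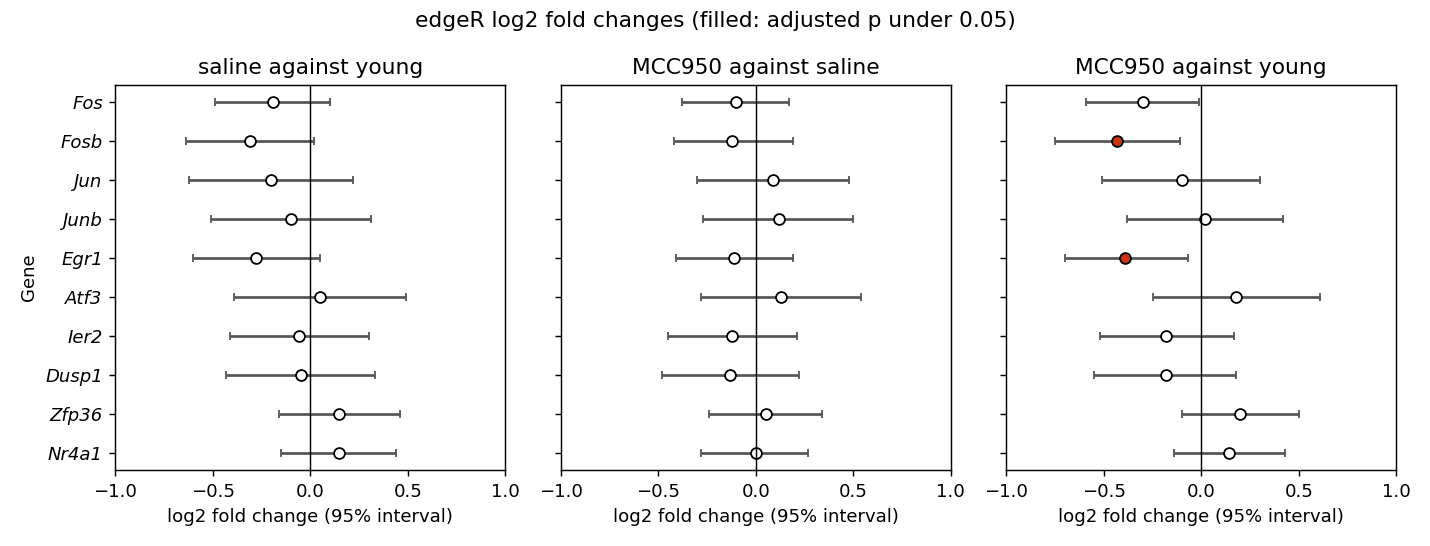
Points are edgeR log2 fold changes of the 10 genes in the 3 comparisons, with 95% intervals as bars and a filled point at an adjusted p under 0.05. The filled points are Fosb at -0.43 and Egr1 at -0.39 in MCC950 against young.

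Against the young libraries, MCC950 libraries were lower in 2 of the 10 genes. Fosb was 0.742-fold (95% interval 0.595 to 0.925, adjusted p = 0.0314, edgeR), at a mean of 411 CPM in MCC950 and 554 in young libraries. Egr1 was 0.765-fold (0.616 to 0.95, adjusted p = 0.0473), at 836 and 1093 CPM. In each gene 4 of 8 MCC950 libraries, replicates 1, 2, 5 and 6, lay below all young libraries and the other 4 within their range. These 4 also differed from the other 4 in clock genes, as given below. The part of this split in the 2 calls was not tested. Fos had the same 4 libraries below, with a fold of 0.813 (0.666 to 0.993) and an adjusted p of 0.094 (edgeR). DESeq2 called Fos as well, at an adjusted p of 0.049. Egr1 lost its call in 5 of the 8 other settings, with adjusted p-values of 0.0515 (counts thinned to equal depth), 0.0524 (without the mitochondrial genes), 0.0536 (robust dispersions), 0.0753 (no filter on low counts) and 0.0763 (only the groups compared) by edgeR. Fosb lost its call in 1 of them, when only the groups compared were fitted (adjusted p = 0.0665, edgeR).

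Both adjusted p-values lay close to the threshold of 0.05, and the calls changed when single libraries were left out. Fosb no longer passed without young replicate 2, 3, 4 or 6 or MCC950 replicate 1, 2, 5 or 6 (adjusted p 0.0518 to 0.0904, edgeR), and Egr1 no longer passed without any of these same libraries or without saline replicate 1, 2, 3, 6 or 7 (adjusted p 0.0525 to 0.117). Their log2 fold changes stayed between -0.44 and -0.34 in those fits. Without young replicate 1, which was the lowest young library for all 10 genes, Fos passed too (adjusted p = 0.0461).

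The 2 of 10 genes lower and 0 of 10 higher stand beside 16.5% lower and 21.8% higher among all tested genes. At an unadjusted p under 0.05 there were 3 of 10, against 47.7% of all genes. None met the study's threshold, against 8.37%, and none lacked overlap, against 7.94%. The remaining 7 had log2 fold changes from -0.18 (Ier2 and Dusp1) to 0.20 (Zfp36). The comparisons of MCC950 with young and of saline with young share their young libraries, and Fosb and Egr1 had log2 fold changes of -0.31 and -0.28 in the latter.

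Differences within a group were larger than those between groups, and the 10 genes shared them. The mean of their log2 CPM was 8.55 in the lowest and 9.40 in the highest young library, 8.71 and 9.23 in saline, and 8.66 and 9.43 in MCC950, a ratio of 1.79, 1.43 and 1.70. The group means were 9.11, 9.04 and 9.00 with SDs of 0.322, 0.186 and 0.354. Young replicate 1 was the lowest of its group in 10 of 10 genes and young replicate 5 was below the group median in 9. Saline replicate 5 was the lowest of its group in 9 of 10. In the MCC950 group, replicates 1, 2, 5 and 6 lay at 8.67, 8.67, 8.68 and 8.66 and replicates 3, 4, 7 and 8 at 9.23, 9.36, 9.43 and 9.27. No MCC950 library lay between 8.68 and 9.23, and each of the 10 genes was on the same side of the group median in each library.

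**Figure D3:**
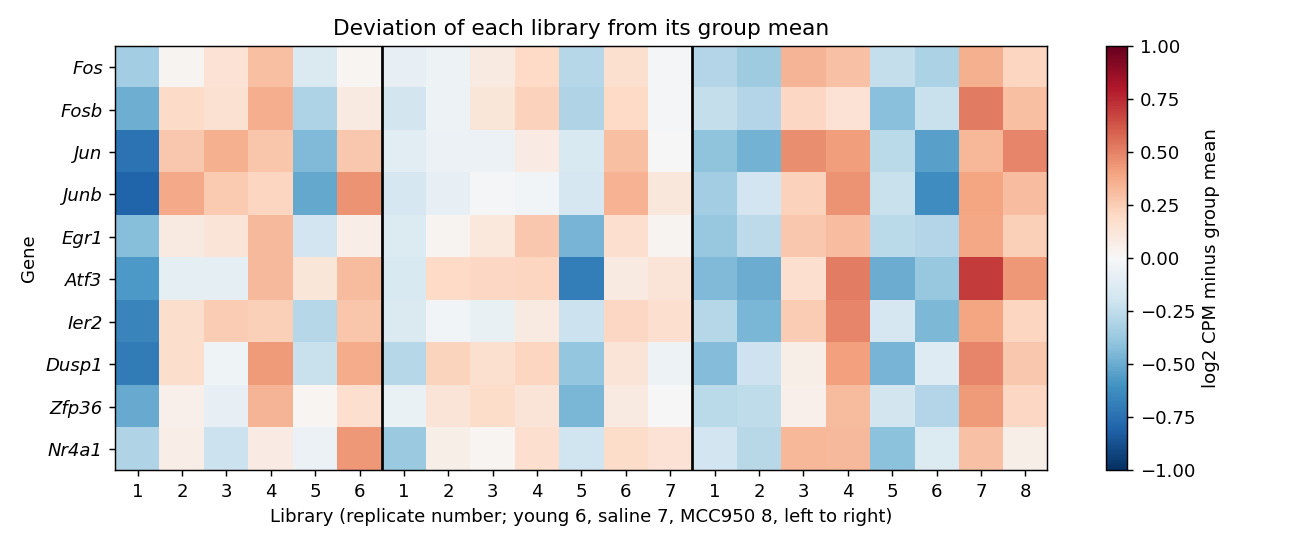
Colours give the log2 CPM of each gene (rows) in each of the 21 libraries (columns, by replicate number within young, saline and MCC950) minus the mean of its group. Many columns are of 1 sign and others are mixed (young replicate 3 runs from -0.218 in Nr4a1 to 0.354 in Jun), with young replicate 1, saline replicate 5 and MCC950 replicates 1, 2, 5 and 6 low in most or all rows.

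The correlation of these deviations over the 21 libraries describes how alike 2 genes were, and the points share library scaling and depth. Over the 45 pairs Pearson's r ran from 0.699 to 0.972 with a median of 0.837. The closest pair was Fos and Egr1 (0.972). Jun, Junb and Ier2, the genes of 1 exon, were at 0.946 to 0.959 with each other, Atf3 and Zfp36 at 0.96, and Fosb and Egr1 at 0.945. The lowest were Junb with Atf3 (0.699) and Jun with Nr4a1 (0.703). The SD within groups was 0.254 (Fos) to 0.41 (Atf3) on the log2 scale, at percentiles 46.8 to 69.9 of the tested genes, whose median SD was 0.27.

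Among the 16367 genes outside the family, 171 had an r above 0.75 with the mean of the 10, and 28 of these belonged to the 54 tested genes of a list of other immediate early genes. The 10 most alike were Ppp1r15a (r = 0.94, rho = 0.938), the stress-induced phosphatase subunit that restores translation, then Atf4, Cdkn1a, Klf6, Socs3, Btg2, Rhob, Zfp36l1, Brd2 and Csrnp1, the last at r = 0.9 and rho = 0.91. Without the 2 libraries farthest from the median the r of these 10 genes was 0.869 to 0.936. Of the 10, 7 were on the list of other immediate early genes, and Atf4, the transcription factor of the integrated stress response, Cdkn1a, the cell cycle inhibitor p21, and Brd2, a reader of acetylated histones, were not. The mean of the other immediate early genes followed the 10 with r = 0.979 (rho = 0.965). The list named secondary response genes had r = 0.81, heat shock genes of dissociation 0.706 and genes of the upstream SRF, CREB and MAP kinase pathways 0.64. The secondary response list was not split by whether induction needs new protein.

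Not all genes of the wider class moved this way. Klf9, a glucocorticoid-responsive factor, had r = -0.662 with the mean of the 10, Errfi1, an inhibitor of the EGF receptor, -0.205, and the helix-loop-helix inhibitors Id1, Id2 and Id3 0.0666 to 0.202. The genes most opposite to the 10 were Slc16a12 (r = -0.891), a membrane transporter, Nadk2 (-0.889), the mitochondrial NAD kinase, and Arl6ip1 (-0.888). Lamp2, a lysosomal membrane protein, was at -0.871.

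Of the 11 lists of cell type markers, some followed these deviations and others did not. The mean of the 12 proximal tubule markers had r = -0.762 (rho = -0.662), and r = -0.774 without the 2 farthest libraries. The loop of Henle and distal tubule markers were at -0.556, macrophage and myeloid markers at 0.505, endothelial markers at 0.482 and podocyte markers at 0.452. The other lists were at -0.36 (neutrophils), -0.199 (mesangium and smooth muscle), -0.0498 (collecting duct), 0.000637 (red blood cells), 0.108 (T cells) and 0.239 (B and plasma cells). The share of mitochondrial counts was at 0.3, or 0.037 without the 2 farthest libraries, and depth outside the mitochondrial genes at -0.12. The summed proximal tubule markers ran from 2309 to 8951 CPM in young, 2433 to 5874 in saline and 3841 to 10655 in MCC950 libraries. Of the 12 genes, 7 were higher in MCC950 than in saline, beside 11.9% of all tested genes. Against young 7 were also higher in MCC950, beside 21.8%. The part of cell composition in the level of the 10 genes was not tested.

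**Figure D4:**
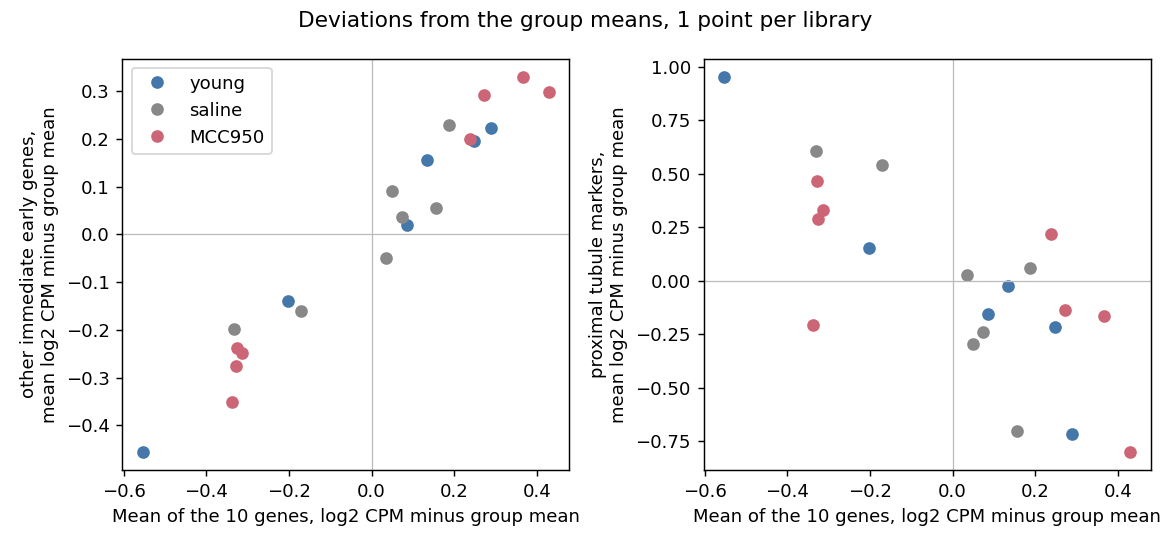
Each point is 1 of 21 libraries, with the mean log2 CPM of the 10 genes minus the group mean on the x axis and the same for 54 other immediate early genes (left) or 12 proximal tubule markers (right) on the y axis. The left points lie close to a rising line (r = 0.979) and the right points fall (r = -0.762).

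Clock genes of the libraries were read after these values had been seen. In the MCC950 libraries Arntl, the core activator of the circadian clock, was at 3.82, 3.17, 3.81 and 3.29 CPM in replicates 1, 2, 5 and 6 and at 11.2, 7.16, 6.90 and 9.61 in replicates 3, 4, 7 and 8. Dbp, an output gene that peaks in the opposite phase, was at 15.5, 23.3, 14.8 and 11.6 CPM in the former and 1.51, 4.51, 2.72 and 3.29 in the latter. The MCC950 libraries with high immediate early genes were thus those with high Arntl and low Dbp, without exception among the 8. All 7 saline libraries had low Arntl, 1.55 to 3.62 CPM, and high Dbp, 11.7 to 37.7 CPM, while young replicates 1 and 2 had 3.01 and 3.71 CPM of Arntl and replicates 3 to 6 had 6.69 to 11.3. Young replicate 2 had low Arntl and a high mean of the 10 genes (9.24), and young replicate 5 the reverse (8.03 CPM of Arntl, mean 8.90). The saline libraries did not pair this way either: saline replicate 6 had the highest mean of its group (9.23) with 1.97 CPM of Arntl and the highest Dbp of all libraries (37.7 CPM), and saline replicate 4 had a mean of 9.20 with 3.52 CPM of Arntl.

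Over the 21 libraries the deviations of Arntl had r = 0.726 (rho = 0.682) with the mean of the 10, and those of Dbp -0.712 (rho = -0.674), or 0.63 and -0.656 without the 2 farthest libraries. Of the other 7 clock genes read, Npas2 was at 0.615, Tef, Nr1d1, Nr1d2 and Per3 between -0.744 and -0.668, and Ciart and Per2 at -0.255 and -0.147. The labels give no time of collection, and the part of time of day, or of any order of work that went with it, was not tested.

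**Figure D5:**
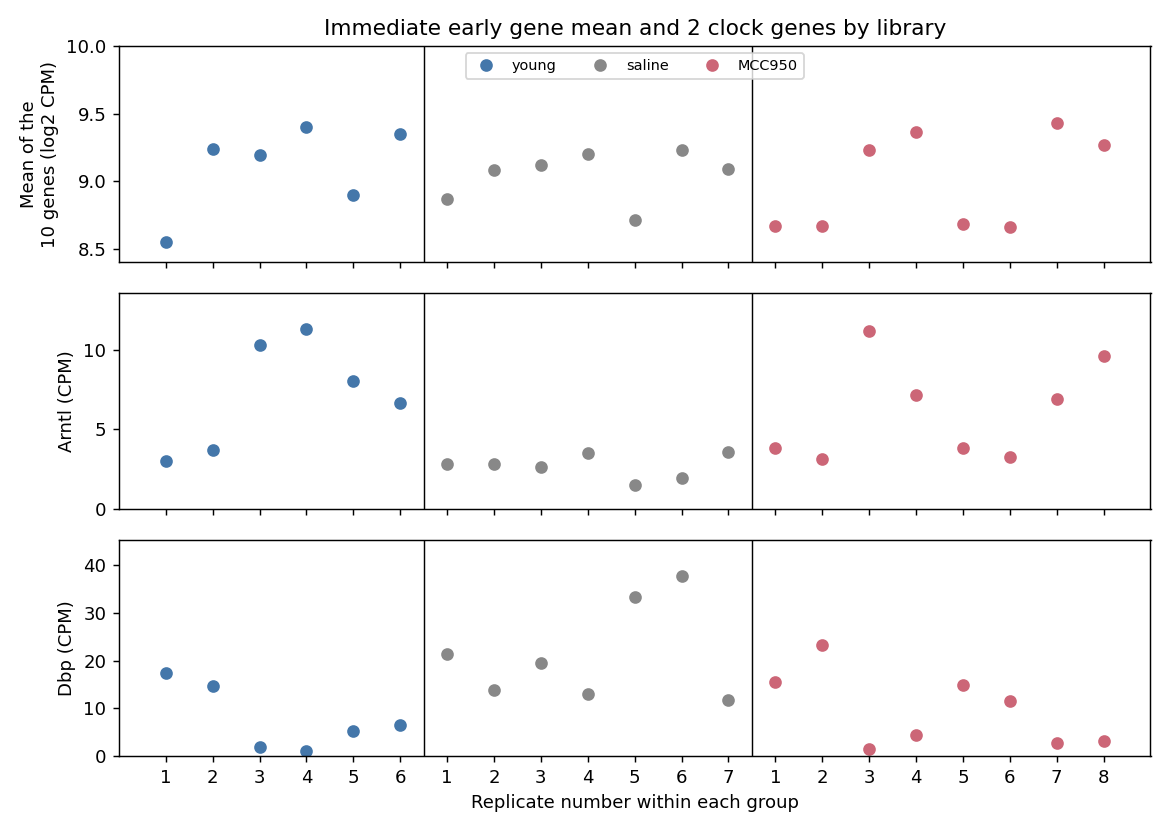
The 3 panels give the mean log2 CPM of the 10 genes (axis not from 0) and the CPM of Arntl and Dbp (axes from 0) in each library by replicate number within young, saline and MCC950. In MCC950 the libraries at 9.23 to 9.43 in the upper panel are those at 6.90 to 11.2 CPM of Arntl and 1.51 to 4.51 CPM of Dbp.

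Because the 10 genes shared most of their spread, each was also set against their mean within the same library, a measure chosen after the values were seen that removes the scaling of the library and includes the gene itself. Fosb was at -0.18 to 0.06 log2 units from the mean in young, -0.34 to -0.18 in saline and -0.57 to -0.23 in MCC950 libraries. Egr1 was at 0.79 to 1.1, 0.63 to 0.87 and 0.62 to 0.74. Fos went the same way, with means of 1.15, 1.03 and 0.95.

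Zfp36 stood the other way, at a mean of 0.78 in young, 1.00 in saline and 1.09 in MCC950 libraries, as did Nr4a1 at -0.41, -0.19 and -0.16 and Atf3 at -0.46, -0.34 and -0.21. Junb was at 0.03, 0.06 and 0.19, and the group means of Jun, Ier2 and Dusp1 lay closer together. Within each library these values cancel out over the family, so lower values of some genes require higher values of others. Zfp36, Nr4a1 and Atf3 passed the edgeR test in no comparison. These values are a description, with no test. The ratio of Zfp36 to Fos in CPM, a pair picked for its difference, was 0.659 to 0.868 in young, 0.874 to 1.11 in saline and 0.903 to 1.18 in MCC950 libraries.

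The other genes of the pathway were read from lists. Among the 54 tested other immediate early genes, 2 were higher and 3 lower in saline than in young, 3 higher and 3 lower in MCC950 than in saline, and 5 higher and 8 lower in MCC950 than in young. The shares of all tested genes in the same order were 12.2% and 12.4%, 11.9% and 4.86%, and 21.8% and 16.5%. In saline against young, Ccn2, a matrix protein induced through YAP and SRF, had a fold of 0.454 (60.4 to 157 CPM over 6 young and 33.8 to 63.6 over 7 saline libraries, SE of the log2 fold change 0.21, adjusted p = 0.000634, edgeR). Id1 had a fold of 0.517 and Mafk, a small Maf protein, of 0.824. Median log2 fold changes here were -1.91 for podocyte, -1.07 for endothelial and -1.0 for mesangium and smooth muscle markers. The part of cell composition in the folds of these genes was not tested. Myc rose 1.46-fold (16.1 to 23.5 CPM in the means, adjusted p = 0.044, edgeR) and Dusp2, a nuclear MAP kinase phosphatase, 1.73-fold (adjusted p = 0.0411). The number higher fell from 2 to 0 without young replicate 1, 2 or 3 or saline replicate 2, 3, 6 or 7, to 1 without young replicate 4 or 5, saline replicate 4 or 5 or MCC950 replicate 4, and rose to 5 without young replicate 6.

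With MCC950, the neuronal activity gene Arc fell from 38.3 ± 10.9 CPM in saline (n = 7) to 22.2 ± 9.38 (n = 8, fold 0.579, adjusted p = 0.0134, edgeR) and Egr2, the relative of Egr1, from 69.9 to 141 CPM over the saline libraries to a mean of 71.1 ± 23.0 (fold 0.643, adjusted p = 0.0274). Egr4 fell as well, with at most 0.425 CPM in any library of these groups. Errfi1 rose 1.58-fold and Nfil3, a repressor of clock output genes, 1.68-fold. Against young, Id1, Ccn2, Arc and Egr4 were lower and Cebpb, a bZIP factor of the acute phase, was higher at 2.07-fold. The number higher in MCC950 than in saline fell from 3 to 1 without saline replicate 2, 3 or 4 or MCC950 replicate 3 and rose to 5 without MCC950 replicate 6, and the number lower fell from 3 to 1 without saline replicate 4. The medians over the list were -0.01, 0.02 and 0.08, beside 0.02, 0.00281 and 0.08 over all tested genes.

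Of 27 upstream genes, 3 were higher and 3 lower in saline than in young, 1 and 3 in MCC950 against saline, and 3 and 9 in MCC950 against young, beside the same shares of all tested genes (12.2% and 12.4%, 11.9% and 4.86%, 21.8% and 16.5%). Srf itself was at 46.9 ± 5.28 CPM in young and 38.6 ± 3.90 in saline (n = 6 and 7, fold 0.823, adjusted p = 0.0422, edgeR), and Creb1 at 28.4 ± 4.43 and 23.6 ± 3.13 (fold 0.831, adjusted p = 0.0448). Mapkapk2, the kinase downstream of p38, rose 1.40-fold, Rps6ka1, a kinase downstream of ERK, 1.46-fold and Mapk3, which is ERK1, 1.17-fold. In MCC950 against saline Map2k2, a MAP kinase kinase, rose 1.28-fold, while Rps6ka5, a histone kinase of this pathway, Mrtfb, a partner of SRF, and Map3k1 fell to folds of 0.667, 0.796 and 0.81. Against young, MCC950 libraries were lower in Elk3 and Elk4, the ternary complex partners of SRF, with folds of 0.686 and 0.722, and in Mrtfb (0.734) and Rps6ka5 (0.672), and higher in Mapkapk2 (1.55-fold).

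The secondary response and heat shock lists were chosen by name and read beside the 10 genes. Their counts stand beside the same shares of all tested genes. These were 12.2% higher and 12.4% lower with saline against young, 11.9% and 4.86% with MCC950 against saline, and 21.8% and 16.5% with MCC950 against young. Of 18 secondary response genes, 1 was higher (Lif, 1.68-fold) and 1 lower (Hbegf, 0.704-fold) in saline than in young. In MCC950 against saline 2 were higher, Odc1, the first enzyme of polyamine synthesis (1.68-fold), and the chemokine Cxcl1 (1.65-fold), and 1 was lower, the matrix protein Thbs1 (0.743-fold). Against young, MCC950 libraries were higher in Cxcl1 (1.96-fold) and Odc1 (1.93-fold) and lower in Hbegf (0.711-fold) and Thbs1 (0.79-fold). Of 12 heat shock genes, 0 were higher and 4 lower in saline than in young: the small heat shock protein Hspb1 (0.461-fold), Hsph1 (0.627-fold), Dnajb4 (0.679-fold) and Dnaja1 (0.756-fold). In MCC950 against saline 5 were higher and 0 lower, among them Hspa8 at 344 ± 51.7 against 235 ± 14.6 CPM (n = 8 and 7, 1.46-fold, adjusted p = 0.00492, edgeR) and Hspd1 (1.51-fold), with Hsph1 (1.55-fold), Hspe1 (1.34-fold) and Hsp90ab1 (1.26-fold). Against young, 3 were higher in MCC950 libraries, Hspd1 (1.41-fold), Hspe1 (1.35-fold) and Hspa8 (1.28-fold), and 2 lower, Hspb1 (0.416-fold) and Dnajb4 (0.719-fold). The median log2 fold changes of the heat shock list were -0.38, 0.16 and -0.15 in the 3 comparisons, beside -0.08, -0.05 and -0.14 for the 10 immediate early genes.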

How the data were processed

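Per the labels, the authors used Trim Galore for trimming, Bowtie2 for alignment and featureCounts to make the gene counts. The strand setting and the handling of reads with several alignments are not given in the sources used here. The 21 deposited tables hold raw counts for 27179 Entrez genes, and 25275 were named through RefSeq (GRCm38.p6). The authors' table of normalized values was not used. Groups came from the labels. The 10 genes, the lists and the tests were chosen with earlier results of these data known. Of 211 list entries 210 were matched. Genes named in the text are the 10, the 5 of each other list with the largest change at an adjusted p under 0.05 in each comparison, and the 10 most alike by r. The clock genes, the most opposite genes, Klf9 and the Id genes, and the ratio of Zfp36 to Fos were chosen after their values were seen.

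The test was that of edgeR 4.0.16 (R 4.3.3; TMM, filterByExpr by group, quasi-likelihood F test, all 3 groups in one fit, 16377 genes, Benjamini-Hochberg adjustment). Intervals are 95% from the fitted SE. Correlations used log2 CPM with a prior count of 2. Exact permutation tests used scipy 1.17.1. DESeq2 1.42.0, DESeq2 size factors, no filter, mitochondrial genes left out, thinning to 5804891 counts, fits of only the groups compared, robust dispersions, a replicate block and leaving out each library were the alternatives. On simulated data of 16377 genes for saline against young, edgeR recovered 83 of 100 genes changed 2-fold and 97 of 100 changed 4-fold, with 6 unchanged genes called. Exon lengths came from GENCODE vM21. P-values set the difference between groups against the spread between mice within them, and the 95% intervals include that spread.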

Additional observations from a re-analysis of the deposited data

How the results depend on the processing

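The 10 genes had no call in MCC950 against saline under any of the 8 other settings or without any 1 library. In MCC950 against young the number lower was 2, and became 1 with mitochondrial genes left out, without the filter on low counts, with robust dispersions or with thinning to equal depth, and 0 when only the groups compared were fitted. It was 3 with DESeq2 and between 0 and 3 when 1 library was left out. The labels do not say whether replicate numbers pair the mice. Over the tested genes, libraries of the same number correlated at -0.144 to 0.401, and libraries of different numbers were not compared. For replicates 1, 3, 4 and 5 the mean of the 10 genes was on the same side of the group mean in all 3 groups. For replicates 2 and 6 it was not. With a replicate block 1 gene, Fosb, was lower in saline than in young and 3 were lower in MCC950 than in young. Among the other immediate early genes the number higher in saline than in young was 2, ran from 0 to 5 when 1 library was left out and was 5 with the replicate block, where the number lower in MCC950 than in saline went from 3 to 9. With 1 library left out, the number higher in MCC950 than in young ran from 3 to 8, with 5 in the full fit. It was 3 with DESeq2 size factors and 2 when only the groups compared were fitted. The cause of these shifts was not tested.

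Small fold changes crossed 0 in some fits, all at adjusted p-values from 0.667 to 1.0 (edgeR or DESeq2). Under the replicate block the log2 fold change of Atf3 was -0.01 in MCC950 against young and -0.02 in saline against young, and that of Jun -0.03 in MCC950 against saline. Junb in MCC950 against young was -0.02 with DESeq2 and with DESeq2 size factors, -0.00101 when only the groups compared were fitted, -0.04 with the replicate block and -0.01 after thinning, and Zfp36 in MCC950 against saline was -0.01 after thinning and Nr4a1 0.00191 without the filter. When 1 library was left out, Junb in MCC950 against young ran from -0.11 to 0.09, Atf3 and Dusp1 in saline against young from -0.04 to 0.14 and from -0.16 to 0.03, and Zfp36 and Nr4a1 in MCC950 against saline from -0.02 to 0.09 and from -0.08 to 0.05. Of the 240 single-gene values under the 8 settings 221 kept their direction and side of the threshold.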
